A study of Rattus norvegicus with 20 samples.

Results

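A set of 8 genes tied to the response of sensory neurons to axon injury was followed across rat dorsal root ganglia after sciatic nerve injury: the transcription factors Atf3, Jun, Junb, Fos, Egr1, Stat3 and Sox11, and the stress gene Gadd45a. Every probe set that the array's probe table assigns to 1 of these 8 genes and to no other was taken, which gave 21 of the 8740 probe sets tested (8 of 4736 genes). Atf3 and Sox11 had 1 probe set each, Junb and Stat3 had 2, Fos had 3, and Jun, Egr1 and Gadd45a had 4. Among these, L32591mRNA_at and L32591mRNA_g_at, rc_AI070295_at and rc_AI070295_g_at (all Gadd45a), and X06769cds_at and X06769cds_g_at (Fos) are pairs designed on 1 sequence, so the members of a pair do not count as separate evidence.

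Each of 20 samples of total RNA was read on 1 Affymetrix rat array. Chronic constriction injury (CCI), in which loose ties are placed around the sciatic nerve, was sampled at 14 days (n = 3) and 21 days (n = 3, titled CC1 but described as constriction). The Seltzer model, which injures part of the nerve and which the labels describe as a transection of the sciatic nerve, has 2 samples at 14 days, 3 at 21 days and 2 at 50 days. Sham-operated rats gave 2, 3 and 2 samples at the same days, and in all 8 groups the ganglia came from the operated side. The labels give no strain, sex, age or ganglion level. Whether replicates are different rats or repeats from 1 rat is not stated either, and the p-values may therefore rest on technical spread only. The CCI and Seltzer comparisons of a day share that day's sham arrays.

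As background, cutting or compressing a peripheral axon sends signals back to the cell body in the ganglion, where kinases of the JNK family act on Jun, and cytokine receptors built on gp130 act through JAK kinases on Stat3. Jun, Junb and Fos are subunits of AP-1, a dimer that binds DNA, and Atf3 is a related factor that is nearly silent in resting sensory neurons and can pair with Jun. Egr1 and Fos are immediate-early genes, which many stimuli switch on briefly, Sox11 is a factor of developing and regrowing neurons, and Gadd45a is induced by DNA damage and other stress.

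Values are the deposited intensities on a linear scale, where values below 0 occur. To judge whether a reading stood above background, each array was given a threshold below which 95 in 100 of its negative values lie in size, called its background level here. It ranged from 169 to 325 on 17 arrays. CCI 21-day replicate 1 had a level of 499, and the Seltzer arrays of 50 days had 765 (replicate 1) and 597 (replicate 2). On the Seltzer 50-day arrays the GAPDH control read 8.89 and 5.10 times as much at the 3′ end as in the middle of the transcript, against at most 2.85 elsewhere. This ratio grows with RNA degradation, but the middle signals lay below background there, so it is not exact. Changes are differences of log2 values after values below 0 were set to 0 and 16 was added, given with their standard error (SE). Calls are limma's p adjusted by Benjamini-Hochberg over all 8740 probe sets, at under 0.05. Folds are ratios of geometric means, or "at least" a bound against background where the lower group was above background on no array. The tissue label fitted the markers: of 15 sensory neuron genes measured, 12 were above background on 10 or more arrays, among them Prph, Nefl and Calca. Fewer cells expressing a gene and less RNA per cell cannot be told apart in such samples.

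Over all 21 probe sets, 6 passed for CCI against sham as the mean over 14 and 21 days, 5 higher and 1 lower, where 2.29% of all probe sets passed in either direction, 1.19% higher and 1.1% lower. They belonged to Atf3, Jun, Gadd45a (3 probe sets) and, lower, Egr1. For Seltzer against sham as the mean over 14, 21 and 50 days 3 passed, all higher, from Atf3 and Gadd45a (2 probe sets), where 4.38% of all probe sets passed, 1.92% higher and 2.46% lower. The median log2 change of the 21 probe sets was 0.40 after CCI and 0.61 after Seltzer injury, beside 0 and 0.025 over all probe sets. The member genes were chosen with earlier results of these data known, so these counts and medians are no independent test of the set. Of the 21, 9 were above background on no array, among them both of Junb, both of Stat3 and the only one of Sox11, so these arrays bear little on those 3 genes.

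**Figure D1:**
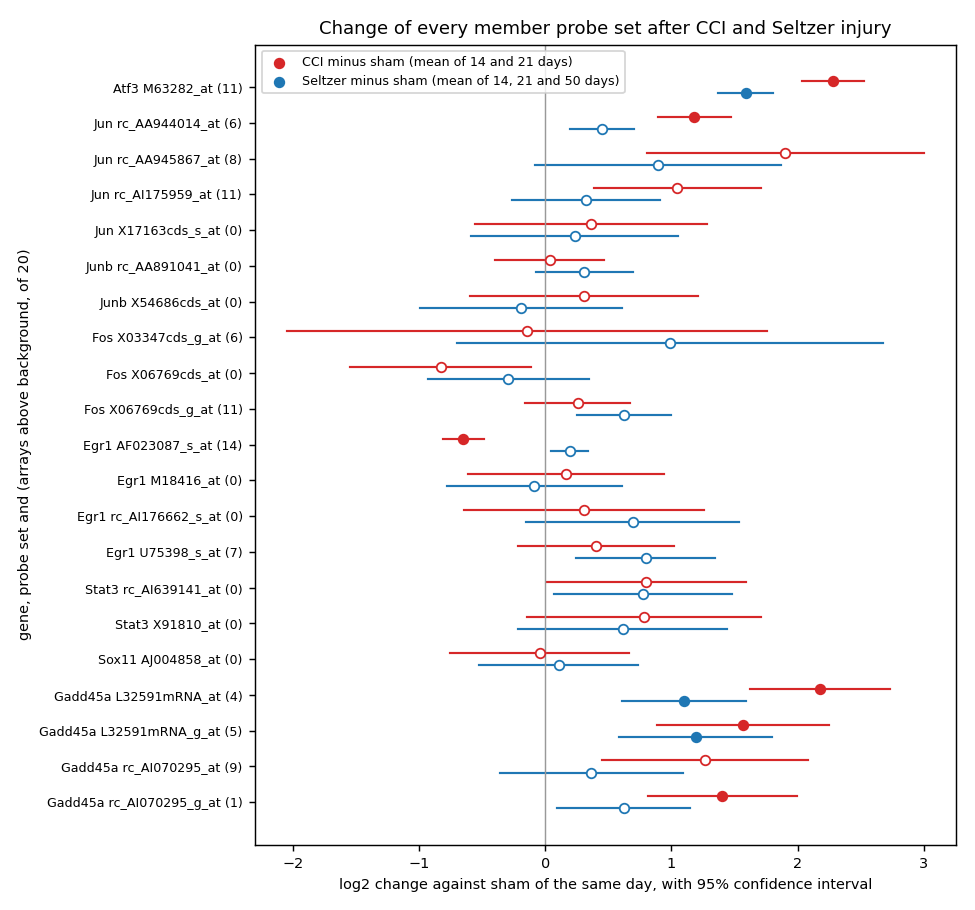
Log2 change against sham of the same day (x axis) for each of the 21 probe sets (y axis, with the number of arrays above background of 20 in brackets), CCI in red as the mean over 14 and 21 days and Seltzer in blue as the mean over 14, 21 and 50 days. Bars are 95% confidence intervals, filled points passed an adjusted p of 0.05 and open points did not. Atf3 has the narrowest intervals among the filled points above 0, and the Egr1 probe set AF023087_s_at is the only filled point below 0.

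Atf3 was the member that separated the groups most cleanly. Its probe set (M63282_at) read 852, 727 and 876 on the CCI 14-day arrays and 933, 817 and 865 on the CCI 21-day arrays. The Seltzer arrays read 689 and 456 at 14 days, 661, 508 and 540 at 21 days, and 320 and 350 at 50 days. Sham arrays read 167 and 144 at 14 days, 183, 159 and 160 at 21 days, and 143 and 105 at 50 days. Every injured array lay above every sham array, every CCI array lay above every Seltzer array, and no sham array was above its own background level.

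**Figure D2:**
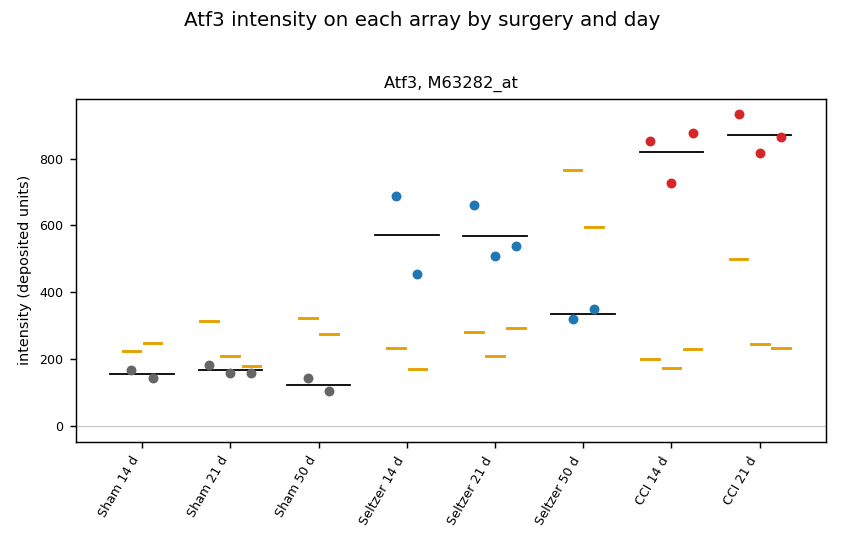
Atf3 intensity in deposited units (y axis, linear) on each of the 20 arrays, by surgery and day (x axis); points are arrays, black lines are group means and orange ticks are each array's background level. CCI arrays lie between 727 and 933, Seltzer arrays between 320 and 689 and sham arrays between 105 and 183, and the 2 Seltzer 50-day points lie under their own orange ticks.

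Against sham of the same day, Atf3 was higher after CCI by 2.28 (SE 0.17, adjusted p = 3.45e-06) at 14 days and by 2.28 (SE 0.15, adjusted p = 5.92e-06) at 21 days, at least 3.46-fold and at least 3.84-fold. After Seltzer injury it was higher by 1.75 (SE 0.19, adjusted p = 0.00133) at 14 days, by 1.67 (SE 0.15, adjusted p = 0.000300) at 21 days and by 1.34 (SE 0.19, adjusted p = 0.000414) at 50 days. These were at least 2.38-fold and at least 2.50-fold at 14 and 21 days, while at 50 days neither group was above background and no fold is given. The share of all probe sets that passed was 2.78% for CCI at 14 days, 0.927% for CCI at 21 days, 0.206% for Seltzer at 14 days, 0.378% at 21 days and 15.9% at 50 days. At 21 days same-numbered Seltzer and sham arrays deviated together from their group means, while the calls above come from a fit without pairing. With those 6 arrays fitted alone and the number as a block the Atf3 rise was 1.67 with an adjusted p of 0.478. The block over all 20 arrays kept the call (adjusted p = 0.000101). Fitted on the arrays of the 2 groups alone, the Seltzer rises lost their calls at 14 days (adjusted p = 0.408) and 50 days (adjusted p = 0.0750) too, and the CCI rises did not.

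In order of mean intensity, Atf3 stood at 872 ± 58.0 (SD, n = 3) in CCI at 21 days, 819 ± 79.8 (SD, n = 3) in CCI at 14 days, 572 ± 165 (SD, n = 2) in Seltzer at 14 days and 570 ± 80.8 (SD, n = 3) in Seltzer at 21 days. Next came Seltzer at 50 days with 335 ± 21.1 (SD, n = 2), and then sham at 21, 14 and 50 days with 167 ± 13.8 (SD, n = 3), 155 ± 16.8 (SD, n = 2) and 124 ± 27.1 (SD, n = 2). Arrays of the CCI groups overlapped each other, as did those of Seltzer at 14 and 21 days and those of sham at 14 and 21 days, while sham at 50 days lay just below sham at 14 days. The Atf3 effect of CCI at 21 days less that at 14 days was -0.0057 (95% interval -0.50 to 0.49), and the test for a change of the Seltzer effect over the 3 days gave an adjusted p of 0.636.

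CCI against Seltzer, Atf3 was higher by 0.57 (SE 0.11, adjusted p = 0.0330) as the mean over 14 and 21 days, with 6 of 6 CCI arrays above the Seltzer mean of their day. The ratio was 1.46 at 14 days and 1.54 at 21 days, and neither day passed alone (adjusted p = 0.208 and 0.201). For this contrast 0.927% of all probe sets passed. The call depended on the setting: the change ran from 0.42 to 0.71 over 32 alternatives and lost its call in 12 of them. Among these were the fits in which CCI 14-day replicate 1 or 3, CCI 21-day replicate 1 or 3, Seltzer 14-day replicate 2, Seltzer 21-day replicate 2 or 3, or Sham 21-day replicate 2 or 3 was left out, with changes from 0.42 to 0.57 and adjusted p-values of at most 0.158.

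Jun, the AP-1 subunit that JNK phosphorylates, was read by 3 informative probe sets that were higher after CCI, only 1 of which passed. The passing probe set, rc_AA944014_at, read 290, 232 and 238 on the CCI 14-day arrays, 221, 273 and 272 on the CCI 21-day arrays, and 174 and 147 on the 14-day sham arrays. The 21-day sham arrays read 54.4, 50.5 and 93.3, and the 50-day sham arrays 264 and 290. The CCI level was thus nearly the same at both days, 253 ± 31.8 and 255 ± 29.8 (SD, n = 3 each), while the sham level was lowest at 21 days and highest at 50 days (F test over sham days, adjusted p = 0.000142).

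The rise of Jun by this probe set was 1.18 (SE 0.13, adjusted p = 0.000276) as the CCI mean, on 6 of 6 arrays, and 1.76 (SE 0.18, adjusted p = 0.000184) at 21 days, where it was at least 1.12-fold. At 14 days the change was 0.60 and the bound at least 1.07-fold, without a call. The CCI mean change kept its call in all 33 alternatives, although its size ran from 0.34, with values under 200 set to 200, to 1.75. The 21-day call was lost with that floor (0.35, adjusted p = 0.262) and with only the groups compared (adjusted p = 0.157).

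In the Seltzer ganglia rc_AA944014_at read 177 and 169 at 14 days, 217, 153 and 187 at 21 days, and 239 and 287 at 50 days. Only the 21-day arrays lay clear above sham, by 1.32 (SE 0.18, adjusted p = 0.00468). Both groups were below background there, and with the 21-day Seltzer and sham arrays fitted alone and paired by number the adjusted p was 0.541. The Seltzer mean change was 0.45 (adjusted p = 0.0523), and the Seltzer effect on this probe set differed between days (F test, adjusted p = 0.0128, where 6.13% of all probe sets passed).

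The other Jun probe sets above background on any array gave changes of the same sign without passing. With rc_AI175959_at the CCI arrays read 501, 471 and 417 at 14 days and 365, 301 and 421 at 21 days, against 233 and 233, and 131, 168 and 161, in sham. All 6 CCI arrays lay above the sham arrays of their day, 1.98-fold at 14 days and at least 1.58-fold at 21 days, and the mean change was 1.05 (SE 0.31, adjusted p = 0.126). Seltzer arrays read 463 and 417 at 14 days, 289, 260 and 294 at 21 days, and 5.79 and 82.4 at 50 days, so the first 5 lay above their sham arrays and the last 2 did not stand apart from the 94.4 and 36.7 of sham.

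With rc_AA945867_at the CCI arrays read 432, 421 and 403 at 14 days and 296, 463 and 365 at 21 days, against sham values of 133 and 157, and of -59.8, 141 and 149. The mean change was 1.90 (SE 0.51, adjusted p = 0.0834), and the large SE went with the 21-day sham array that read below 0. The fourth Jun probe set, X17163cds_s_at, was above background on no array and below 0 on 18 of 20. Across the 20 arrays the correlation between rc_AA944014_at and rc_AI175959_at was 0.013, between rc_AA944014_at and rc_AA945867_at 0.54, and between rc_AA945867_at and rc_AI175959_at 0.62, so the 3 did not trace 1 common profile.

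Gadd45a, a small protein that binds cell cycle and stress kinases, was higher as the CCI mean by each of its 4 probe sets, and 3 of them passed. At 14 days alone rc_AI070295_at did not rise (mean intensity 314 in CCI and 334 in sham). In the promoter table of RefSeq, which held 5 of the 8 genes (Junb, Egr1, Stat3, Sox11 and Gadd45a), the 250 bases before the Gadd45a start lie at chr4:97486800-97487049 on the minus strand of GRCr8. They are shown because all 4 Gadd45a probe sets were higher as the CCI mean, with an octamer, a motif bound by Oct-1, in capitals.

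Gadd45a promoter: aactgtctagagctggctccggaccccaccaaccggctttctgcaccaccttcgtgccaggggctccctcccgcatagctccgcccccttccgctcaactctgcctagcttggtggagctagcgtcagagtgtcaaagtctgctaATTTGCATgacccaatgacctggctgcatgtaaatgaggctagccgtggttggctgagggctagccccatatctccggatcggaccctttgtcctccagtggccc

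The octamer (ATGCAAAT on the minus strand of this window, read as ATTTGCAT above) lay at positions -105 to -98 from the start, and 1.56% of 33469 rat promoter windows of the same length hold it on either strand. Neither the AP-1 site TGANTCA, the cyclic AMP response element TGACGTCA nor the STAT site TTCNNNGAA was found in the window of any of the 5 genes. They occur in 6.34%, 1.59% and 7.67% of all windows. The Egr1 window held a pair of CArG boxes, the motif of serum response factor, at positions -105 to -96 and -83 to -74 from its start, where 1.5% of windows hold 1 or more, and 2 matches to the half-site TGACGT, at positions -136 to -131 and -67 to -62, where 6.95% do. Each match is a run of letters and says nothing of binding in these ganglia.

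With the Gadd45a probe set L32591mRNA_at the CCI arrays read 278, 292 and 207 at 14 days and 269, 205 and 219 at 21 days. Sham arrays read 53.9 and 21.9 at 14 days, 94.9, 41.8 and 23.7 at 21 days, and -52.0 and -34.9 at 50 days. Seltzer arrays read 255 and 221 at 14 days, 70.5, 145 and 131 at 21 days, and -22.2 and -79.0 at 50 days. Every CCI array lay above every sham array, the 14-day Seltzer arrays lay among the CCI arrays, and the 50-day Seltzer arrays lay with sham at or below 0.

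By this probe set Gadd45a was higher after CCI by 2.40 (SE 0.38, adjusted p = 0.00305) at 14 days and by 1.95 (SE 0.34, adjusted p = 0.0155) at 21 days, with a mean of 2.18 (SE 0.26, adjusted p = 0.000344) on 6 of 6 arrays. The 14-day rise was at least 1.09-fold, and at 21 days no array of either group was above background. Its sham level differed between days (F test, adjusted p = 0.0114). The Seltzer mean was 1.10 (SE 0.23, adjusted p = 0.0158), made up of 2.30 at 14 days (adjusted p = 0.0509), 1.00 at 21 days (adjusted p = 0.470) and 0 at 50 days, where all 4 arrays were below 0 and had been set to 0. With values under 200 set to 200 the CCI mean was 0.28 and not called, so the log2 size rests on readings near background.

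The partner Gadd45a probe set L32591mRNA_g_at read 218, 224 and 193 in CCI at 14 days and 357, 321 and 198 at 21 days, against 26.1 and 129, and 101, 94.6 and 59.0, in sham. Its mean rise was 1.57 (SE 0.31, adjusted p = 0.0171) after CCI and 1.19 (SE 0.28, adjusted p = 0.0315) after Seltzer injury, where the arrays read 269 and 173, then 228, 143 and 90.5, then 170 and 101, against 43.6 and 43.7 in 50-day sham. The CCI call was lost in 4 alternatives: without Sham 14-day replicate 1 (1.12, adjusted p = 0.0776), with the floor at 200 (0.30, adjusted p = 0.178), with only the groups compared (adjusted p = 0.0701) and with the 21-day sham arrays as control at 14 days (1.40, adjusted p = 0.135). The Seltzer call was lost in 10 of 33 alternatives, 4 of them the floor, only the groups compared, the 50-day arrays left out and the 21-day sham control (adjusted p from 0.0596 to 0.959). The others were leaving out Seltzer 14-day replicate 1, Seltzer 50-day replicate 1, Sham 14-day replicate 1, Sham 21-day replicate 3, Sham 50-day replicate 1 or Sham 50-day replicate 2 (0.89 to 1.19, adjusted p from 0.0550 to 0.0865). The Seltzer call of L32591mRNA_at was lost in 4, without Sham 14-day replicate 2 (0.95, adjusted p = 0.0528), without the 50-day arrays (1.65, adjusted p = 0.0642), with the floor (0.083, adjusted p = 0.959) and with only the groups compared (adjusted p = 0.0505).

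The second pair of Gadd45a probe sets passed at 21 days after CCI and not at 14 days, but the test of the difference between the days passed for neither (2.66, adjusted p = 0.128, and 1.28, adjusted p = 0.391). The mean of rc_AI070295_at in sham was 334 ± 140 (SD, n = 2) at 14 days and 91.3 ± 68.5 (SD, n = 3) at 21 days. With rc_AI070295_at the CCI arrays read 371, 353 and 216 at 14 days, within reach of the 235 and 433 of sham, and 799, 558 and 351 at 21 days, above the 28.5, 81.0 and 164 of sham. The 21-day rise was 2.59 (SE 0.50, adjusted p = 0.0283), which is at least 2.38-fold, while at 14 days the difference was -0.063. Blocking on the replicate number gave an adjusted p of 0.0561 at 21 days. Leaving out CCI 21-day replicate 2, Sham 21-day replicate 1 or Sham 21-day replicate 2 also ended this call (2.07 to 2.63, adjusted p from 0.0659 to 0.0954). Its CCI mean of 1.27 did not pass (adjusted p = 0.138).

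The probe set rc_AI070295_g_at read 188, 203 and 167 in CCI at 14 days against 116 and 90.8 in sham, and 284, 211 and 121 at 21 days against 13.0, 53.3 and 49.8. Its mean rise was 1.40 (SE 0.27, adjusted p = 0.0148) and its 21-day rise 2.05 (SE 0.36, adjusted p = 0.0169). Only 1 of its 20 arrays was above background, so no fold is given for 21 days. CCI 21-day replicate 1, the array with the raised background of 499, was the highest of the 21-day CCI arrays by each of the 4 probe sets. Without it none of the 3 Gadd45a calls at 21 days remained (1.79 to 2.32, adjusted p from 0.0619 to 0.116), and the calls among the 21 members at 21 days went from 5 to 2. The mean rise of rc_AI070295_g_at was lost without Sham 14-day replicate 2 (1.33, adjusted p = 0.0671), with the floor (0.10, adjusted p = 0.271) and with only the groups compared (adjusted p = 0.0682). The 21-day rise of L32591mRNA_at was lost without Sham 21-day replicate 2 (1.89, adjusted p = 0.0567) or 3 (1.62, adjusted p = 0.0541). With only the groups compared, no Gadd45a call at a single day remained.

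**Figure D3:**
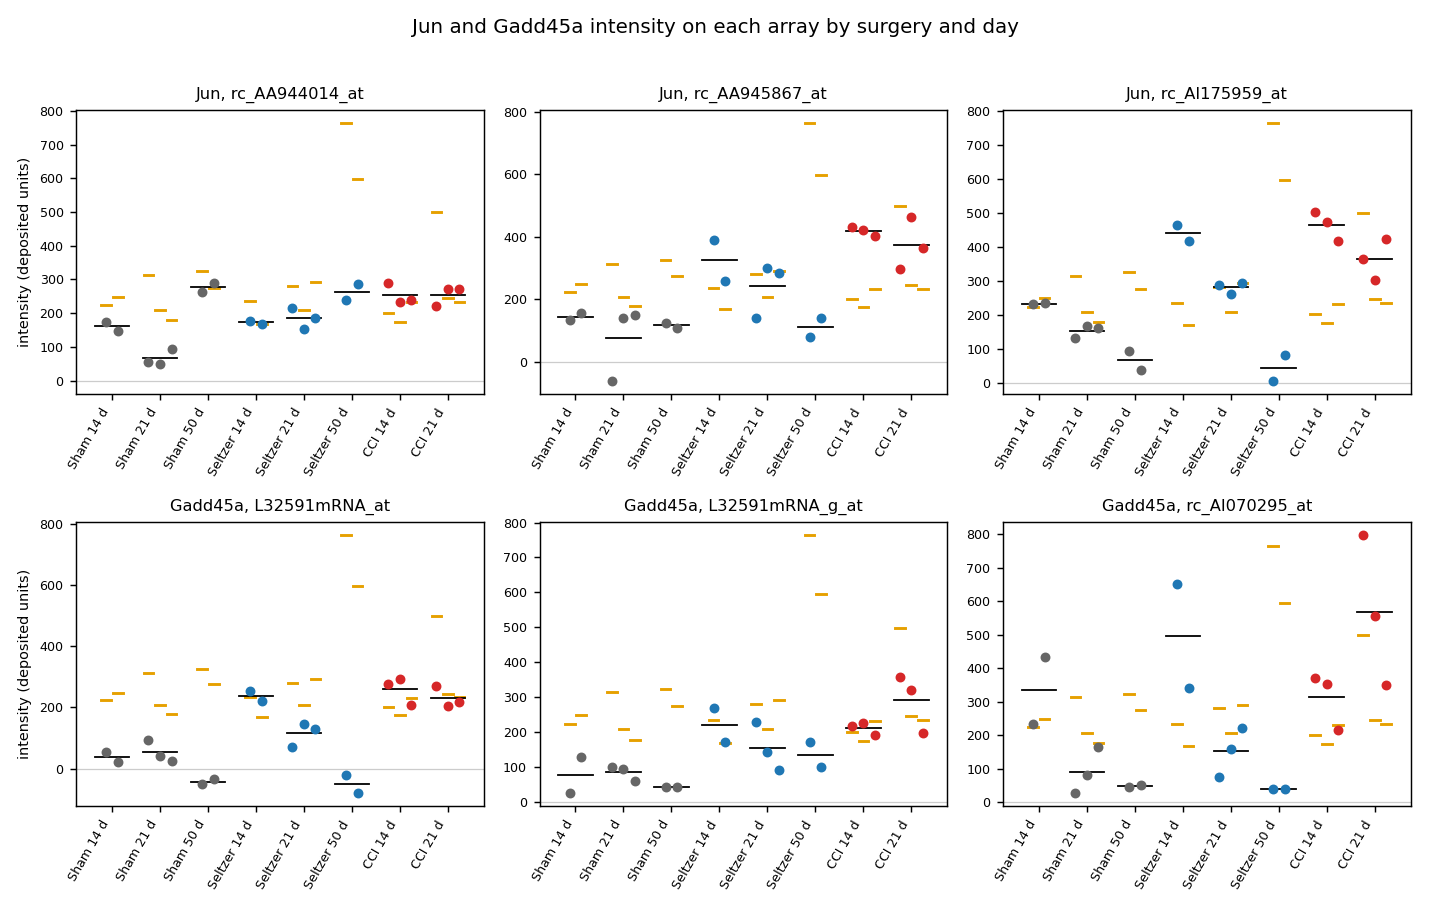
Intensity in deposited units (y axes, linear, each panel on its own scale) on each array, by surgery and day (x axes), for 3 Jun probe sets (top) and 3 Gadd45a probe sets (bottom); points are arrays, black lines are group means and orange ticks are each array's background level. CCI points lie above the sham points of their day in the top row and for L32591mRNA_at, many of them close to the orange ticks, and the 50-day Seltzer points lie under their ticks throughout.

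CCI and Seltzer ganglia did not differ past the threshold in any Jun or Gadd45a probe set. At 21 days all 3 CCI arrays of rc_AI070295_at lay above the Seltzer readings of 76.3, 159 and 221, by 1.83 (95% interval 0.74 to 2.92, adjusted p = 0.235) and at least 2.09-fold. At 14 days the difference was -0.61 (95% interval -1.82 to 0.61), with Seltzer arrays at 652 and 342. For CCI against Seltzer at 21 days none of the 21 probe sets passed with limma, where 0.114% of all probe sets did, and 4 of the 21 had an unadjusted p under 0.05 (Atf3, rc_AA944014_at of Jun, and L32591mRNA_at and rc_AI070295_at of Gadd45a, all higher in CCI), beside 9.26% of all probe sets.

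Egr1 gave a different picture, carried by 1 of its 4 probe sets. AF023087_s_at read 276, 311 and 261 in CCI at 14 days and 302, 289 and 266 at 21 days. Sham arrays read 743 and 762 at 14 days, 313, 256 and 248 at 21 days, and 398 and 361 at 50 days. Seltzer arrays read 955 and 873 at 14 days, 227, 271 and 288 at 21 days, and 474 and 505 at 50 days. The CCI means at 14 and 21 days were 283 ± 25.4 and 285 ± 18.0 (SD, n = 3 each). What differed was the level of the other 14-day groups, since the sham and Seltzer arrays of 14 days stood above all other arrays.

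At 14 days this Egr1 probe set was lower in CCI than in sham by 2.67-fold (log2 change -1.37, SE 0.11, adjusted p = 8.53e-06) and lower than in Seltzer ganglia by 3.24-fold (-1.64, SE 0.11, adjusted p = 2.03e-06, where 1.75% of all probe sets passed). At 21 days the differences were 0.068 from sham and 0.12 from Seltzer, and the CCI effect differed between the days by 1.43 (SE 0.15, adjusted p = 0.000133, where 1.8% of all probe sets passed). The mean CCI change of -0.65 (SE 0.076, adjusted p = 0.000337) therefore came from 14 days alone, and 2 of the 6 CCI arrays read higher than their day's sham mean. The sham level itself differed between days (F test, adjusted p = 1.59e-05, where 8.48% of all probe sets passed), and with the 21-day sham arrays as control for both days the CCI changes were 0.053 at 14 days and 0.061 as the mean, neither called.

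Marker levels that moved on the same arrays stand beside this result. The summed intensity of 12 skeletal muscle genes ran at 14 days from 12105 to 13598 in CCI, from 5907 to 6805 in sham and from 8063 to 8212 in Seltzer. At 21 days it ran from 1862 to 2841 in CCI, from 5676 to 6383 in sham and from 4036 to 4620 in Seltzer. Of those 12 genes, Acta1 was higher at 14 days in CCI than in sham by 1.25 (adjusted p = 0.00401). At 21 days 3 of the 12 passed against sham, all lower in CCI. Summed sensory neuron markers ran from 25921 to 31560 in CCI and from 21299 to 31677 in sham at 14 days, ranges that overlap. Of the 15 genes in that sum, 2 passed against sham at 14 days, both lower in CCI. They were the nociceptor sodium channel genes Scn10a (-1.47, adjusted p = 0.00671) and Scn11a (-1.44, adjusted p = 0.00231). The median log2 change of the 15 was 0.12. Against Seltzer at 14 days 1 of the 15 passed, Scn11a, lower in CCI (-1.02, adjusted p = 0.0331), with a median of 0.12. The part of these marker levels in the Egr1 difference was not tested.

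The other Egr1 probe sets did not share the 14-day pattern. U75398_s_at read 114, 139 and 162 in CCI, 173 and 150 in Seltzer and 65.9 and 185 in sham at 14 days, and its highest values were the 715 and 699 of Seltzer at 50 days, against 370 and 315 in 50-day sham. The 715 lay below the background level of its array and the 699 above, and both arrays had the high GAPDH 3′ ratio. The Seltzer mean change of U75398_s_at was 0.80 (SE 0.25, adjusted p = 0.106), on 7 of 7 arrays, these 50-day arrays included. M18416_at and rc_AI176662_s_at were above background on no array. Over the 20 arrays AF023087_s_at correlated with these 3 at -0.15 to 0.12, while rc_AI176662_s_at and U75398_s_at correlated with each other at 0.80.

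Fos, the AP-1 partner of Jun, passed in 1 comparison of injured with sham ganglia, by 1 of its 3 probe sets, which also differed between the sham days (F test, adjusted p = 0.0396). X06769cds_g_at read 1204 and 917 in Seltzer at 50 days against 395 and 294 in sham, and 86.5 to 345 on the 16 arrays of 14 and 21 days. The 50-day rise was 1.58 (SE 0.31, adjusted p = 0.00490), 3.09-fold, on the arrays with the high GAPDH 3′ ratio and where 15.9% of all probe sets passed, and it was lost without Sham 50-day replicate 2 (1.38, adjusted p = 0.0531) or with only the groups compared (adjusted p = 0.0904). The part of RNA quality in it was not tested. At 14 days both injury groups lay below sham by this probe set, with 211, 208 and 201 in CCI and 232 and 210 in Seltzer against 245 and 313, and at 21 days CCI lay above it, with 345, 243 and 270 against 86.5, 207 and 161; neither difference passed.

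Of the remaining Fos probe sets, X06769cds_at, the partner on the same sequence, was above background on no array and below 0 on 15. X03347cds_g_at scattered within groups more than between them, from 58.4 to 874 among the 3 CCI 21-day arrays and from 23.1 to 388 among the 3 sham 21-day arrays. Its CCI mean change was -0.14 (95% interval -2.05 to 1.76).

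**Figure D4:**
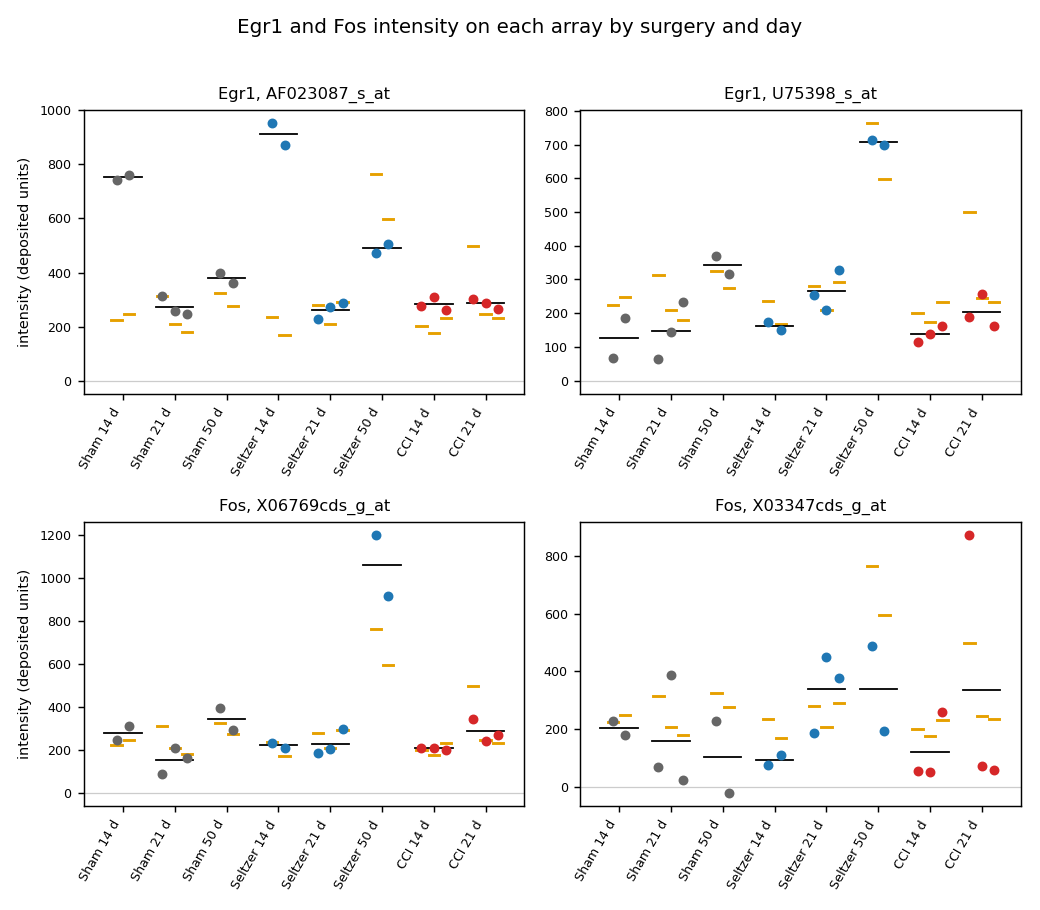
Intensity in deposited units (y axes, linear, each panel on its own scale) on each array, by surgery and day (x axes), for 2 Egr1 and 2 Fos probe sets; points are arrays, black lines are group means and orange ticks are each array's background level. In the first panel the 14-day sham (743 and 762) and Seltzer (955 and 873) arrays lie above all others, and in the Fos panel X06769cds_g_at the 50-day Seltzer arrays (1204 and 917) do.

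Junb, Stat3 and Sox11 were not measurable with confidence. The Junb probe sets rc_AA891041_at and X54686cds_at read at most 23.0 and 42.6 on any array and were below 0 on 17 and 12 of 20. The Stat3 probe set rc_AI639141_at read 55.0, 67.1 and 86.5 in CCI and 68.8 and 85.5 in sham at 14 days, and 201, 73.1 and 126 in CCI against 7.35, 30.2 and 52.3 in sham at 21 days, with the highest values, 336 and 373, in Seltzer at 50 days under the raised background there. Its mean changes were 0.80 (95% interval 0.011 to 1.59, adjusted p = 0.458) after CCI and 0.77 (95% interval 0.071 to 1.48, adjusted p = 0.235) after Seltzer injury.

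X91810_at, the second Stat3 probe set, ran from -102 to 120, and Sox11 (AJ004858_at) from -40.5 to 33.4. The Sox11 CCI mean change was -0.045 (95% interval -0.75 to 0.66). These readings show no level above background, not an absence of the transcripts.

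Read day by day without a model, 11 of the 21 probe sets had all CCI arrays above all sham arrays at 21 days, where 6.22% of all probe sets did, and 7 did at 14 days, where 13.2% did. All CCI arrays lay below all sham arrays for 1 probe set at 21 days (5.24% of all probe sets) and for 2 at 14 days (21.1%). For Seltzer the counts above sham were 8 at 14 days (13.4%), 6 at 21 days (4.47%) and 7 at 50 days (32.2%), and the counts below sham were 2 (15.8%), 0 (3.97%) and 3 (18.9%). Groups of 2 arrays separate more often than groups of 3, and several of these probe sets were below background in both groups.

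Genes that act with these factors were read from lists, first as the mean over days. Of 14 other AP-1 and ATF family genes measured, none passed after CCI (1 at an unadjusted p under 0.05) and 1 rose after Seltzer injury, Cebpd, an inflammation-linked bZIP factor, by 0.81 (SE 0.18, adjusted p = 0.0246). Of 20 other immediate-early genes none passed as a mean after either injury (2 at an unadjusted p under 0.05 after each), with median changes of 0.23 and 0.33. Of 19 genes of the gp130, JAK and STAT pathway none passed as a mean after either (0 after CCI and 3 after Seltzer at an unadjusted p under 0.05).

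Of 11 genes of the JNK and stress kinase pathway 1 rose as the CCI mean, the small heat shock protein gene Hspb1, by 0.88 (SE 0.13, adjusted p = 0.00209), and none passed as the Seltzer mean (2 at an unadjusted p under 0.05). Hspb1, which also counts among the effector genes, was higher in CCI than in Seltzer ganglia, by 0.64 (SE 0.13, adjusted p = 0.0323). Of 11 further genes of the Gadd45 and p53 response 1 rose after CCI, Ccng1, cyclin G1, a p53 target, by 0.66 (SE 0.14, adjusted p = 0.0223), and none passed as the Seltzer mean (0 at an unadjusted p under 0.05). Of 13 other sensory neuron and regeneration factors none passed after CCI (0 at an unadjusted p under 0.05). As the Seltzer mean 1 was lower, Rest, a repressor of neuronal genes, by 0.37 (SE 0.076, adjusted p = 0.0161). At single days Rest passed only at 50 days. Its mean was then -84.6 in Seltzer and 22.2 in sham, both under the background levels of those arrays.

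Day by day, most calls in these 6 lists came at 50 days after Seltzer injury, on the arrays with the high GAPDH ratio and where 15.9% of all probe sets passed. There Cebpd (1.52), the immediate-early genes Ier3 (0.93) and Homer1 (1.28), the stress kinase gene Mapk14 (1.94), and the STAT genes Stat5a (4.53) and Stat6 (1.67) were higher. Lower were Id3 (-4.08), the kinase gene Map3k12 (-2.88), and the transcription factors Klf9 (-1.13), Isl1 (-2.21) and Rest (-1.24), with adjusted p-values over the 11 genes of at most 0.0455. Readings below 0 lay behind the changes of Stat5a, Id3 and Rest, so their sizes depend on the number added before log2. At 14 and 21 days the only calls against sham in these lists were Hspb1 (1.19, adjusted p = 0.00351) and Ccng1 (1.05, adjusted p = 0.0139), both in CCI at 14 days.

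A further list held genes whose products injured sensory neurons are known to make. Of 18 such effector genes measured 8 rose as the CCI mean and 8 as the Seltzer mean and none fell in either, where 2.29% and 4.38% of all probe sets passed, with median changes of 1.09 and 0.68. The list was chosen with earlier results of these data known, and each gene was read by its brightest probe set. These counts are therefore no independent test against the shares of all probe sets. At single days 1 of the effector genes was lower, Basp1, a growth cone protein gene, in Seltzer ganglia at 50 days (mean intensity 522 against 2131 in sham, adjusted p = 0.00194). That call lay on the arrays with the high GAPDH 3′ ratio, where 15.9% of all probe sets passed, and the part of RNA quality in it was not tested. After CCI the smallest adjusted p-values belonged to Cacna2d1, the calcium channel subunit that gabapentin binds (2.08, adjusted p = 2.06e-07), the neuropeptides Npy (6.04, adjusted p = 1.80e-06) and Gal (4.48, adjusted p = 3.89e-05), and Vgf, a secreted growth-factor-induced protein (1.52, adjusted p = 0.000737). After Seltzer injury they belonged to Npy (4.26, adjusted p = 1.42e-05), Cacna2d1 (0.76, adjusted p = 0.000525), Gal (2.73, adjusted p = 0.000732) and the neuropeptide Vip (1.66, adjusted p = 0.00355).

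The genes whose log2 profile over the 20 arrays was most like that of Atf3 were Npy (r = 0.97), the lysosomal protease gene Ctss (0.94), Gal (0.92), Mmp16 (0.91, above background on no array) and Ptpro (0.87). For Jun (rc_AI175959_at) they were Lyz2 (0.91), Ywhaq (0.91), Nsg1 (0.90, above background on 1 array), Qdpr (0.88) and Fbxo38 (0.87, above background on no array). For Gadd45a (rc_AI070295_at) they were the same Nsg1 probe set (0.88), Hnrnpf (0.87), Ywhaq (0.86), Btg1 (0.84) and Lyz2 (0.83). For Egr1 (AF023087_s_at) they were Srsf2 (0.93), Dhx36 (0.91), Paqr3 (0.91), Tmtc3 (0.90) and Zfand6 (0.89). These are correlations over arrays that share their groups and their processing, given as a description.

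Ctss, ranked above for Atf3, and Lyz2, ranked for Jun (rc_AI175959_at) and Gadd45a (rc_AI070295_at), are also macrophage genes. Of 10 macrophage markers measured 3 rose as the CCI mean, namely Cd74, Ctss and Lyz2, and 2 as the Seltzer mean, Cd74 and Ctss. Their summed intensity ran from 4574 to 5526 in CCI at 14 days, 3860 to 4950 in CCI at 21 days, 3664 to 4683 in Seltzer at 14 days and 3025 to 3440 in Seltzer at 21 days, against 2182 to 2574 and 1536 to 2003 in sham at 14 and 21 days. At 50 days it ran from 1976 to 2407 in Seltzer and from 1520 to 1751 in sham. By the probe sets ranked above, mean Atf3 was then 335 in Seltzer and 124 in sham. Jun was 44.1 in Seltzer and 65.5 in sham, and Gadd45a 39.3 and 48.2. All of these 50-day readings, Atf3 included, lay below the background level of their arrays, so they bear little on whether the members followed the macrophage sums. Of the other macrophage markers, Cd14 was above background on 12 arrays, and Itgam, Csf1r, Aif1, C1qb, C1qc and Ptprc were above background on no array. The part of macrophages in the member changes was not tested.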

How the data were processed

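Total RNA of 20 rat dorsal root ganglion samples was read on 1 array each. Values are intensity on a linear scale as deposited by the authors in 1 table of 8799 probe sets. The sources used here do not give the software, the background step or any scaling between arrays. The 59 control probe sets were left out. Probe sets were named from the platform annotation. Of 8740 probe sets 7006 had 1 symbol, 308 several and 1426 none.

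Negative values were replaced by 0, and log2 was taken after adding 16. A mean per group (8 groups, 12 residual degrees of freedom) was fitted with limma 3.58.1 (lmFit, eBayes) in R 4.3.3 with statmod 1.5.0. Tests were two-sided, adjusted by Benjamini-Hochberg over 8740 probe sets, with a threshold of 0.05. The fit was tested on simulated data. Figures used Python 3.11.15 and matplotlib 3.10.9. For lists, each gene was read by the brightest of its probe sets on average, and at most the 4 genes of smallest adjusted p are named. Likeness used the brightest probe set of each member called in a mean contrast. The octamer, half-site and CArG box were added after the other motifs.

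Alternatives were 1 or 64 added before log2, a floor at 200, quantile normalization, median centring of arrays, leaving out the dimmest 33.3% of probe sets, fits of the groups compared alone, a block for the replicate number, trended and robust eBayes, and weights per array. Further fits left out the 50-day arrays, the replicate 1 arrays of 21 days, or each array in turn, or used sham of 21 days as the control of 14 days. The members and lists were chosen with earlier results of these data known. On 3 CCI arrays the labels repeat the replicate number under a batch heading. At 21 days, same-numbered Seltzer and sham arrays deviated together from their group means (r = 0.30, 0.23 and 0.11). The main fit did not pair them, and the replicate number entered only the alternative fits with a block. Among the other groups that share numbers, not every pair exceeded 0.1. The fit of those 6 arrays alone with the block was added after seeing the data.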

Additional observations from a re-analysis of the deposited data

Results flagged for a closer look

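The effect of CCI differed between days for 2 members by a test of the difference itself. For Egr1 (AF023087_s_at) the effect at 21 days less that at 14 days was 1.43 (SE 0.15, adjusted p = 0.000133), from -1.37 at 14 days to 0.068 at 21 days. For Jun (rc_AA944014_at) it was 1.15 (SE 0.27, adjusted p = 0.0495), from 0.60 to 1.76. The same Jun probe set had a Seltzer effect that differed between 14, 21 and 50 days (F test, adjusted p = 0.0128). In each case the sham level also differed between days. The Jun difference of 1.15 lost its call in 28 of 33 alternatives, with values from 0.011 to 1.38.

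The Egr1 probe set AF023087_s_at also differed between the injury models at 14 days, with CCI lower than Seltzer by a log2 difference of -1.64 (SE 0.11, adjusted p = 2.03e-06) on 3 of 3 CCI arrays. At 21 days the difference was 0.12 (adjusted p = 0.718).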

How the results depend on the processing

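Over the member probe sets and contrasts, 231 results were recomputed in 7431 alternative values. Of these, 7232 kept their side of the threshold, among them 293 uncalled values whose direction differed from the main fit. A further 97 lost a call, 100 gained a call and 2 reversed a called change. The 2 were Egr1 (AF023087_s_at) with the 21-day sham arrays as control at 14 days, 0.061 as the CCI mean and 0.053 at 14 days. Of 27 called results 7 kept their call in every alternative run.

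Counts of member probe sets called moved as follows. For the Seltzer mean, 3 became 5 with the floor at 200 or array weights, 1 with only the groups compared, and 6 without the 21-day replicate 1 arrays or with the 21-day sham control. For CCI against Seltzer as a mean, 2 became 1 when arrays were centred, when the dimmest probe sets were left out or with only the groups compared. For CCI at 14 days, 3 became 5 with array weights. For CCI at 21 days, 5 became 2 with the floor and 1 with only the groups compared. For Seltzer at 14 days, 1 became 2 with 64 added, the floor, quantile normalization, array weights or without the 21-day replicate 1 arrays, 0 with only the groups compared and 6 with the 21-day sham control. For Seltzer at 21 days, 2 became 1 with the floor or centring and 0 with only the groups compared or with those arrays alone under the replicate block. For Seltzer at 50 days, 2 became 5 with the floor or without the 21-day replicate 1 arrays and 1 with only the groups compared. For CCI against Seltzer at 14 days, 1 became 2 with array weights. For the CCI effect at 21 less 14 days, 2 became 0 with centring or the 21-day sham control and 1 under 10 other settings, the replicate block among them. For sham over the days, 4 became 9 with array weights and 2 without the 50-day arrays. For the Seltzer effect over the days, 1 became 3 with 64 added, array weights or without the 21-day replicate 1 arrays, 4 with the floor, 2 with centring and 0 without the 50-day arrays.

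With each array left out in turn the counts ran from 5 to 8 for the CCI mean, 2 to 5 for the Seltzer mean, 1 to 3 for CCI against Seltzer, 3 to 4 and 2 to 6 for CCI at 14 and 21 days, 1 to 2, 2 to 2 and 1 to 4 for Seltzer at 14, 21 and 50 days, 1 to 3 and 0 to 0 for CCI against Seltzer at 14 and 21 days, 1 to 3 for the change of the CCI effect, 1 to 3 for the change of the Seltzer effect and 2 to 6 for sham.

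Over all probe sets, the 200, 383 and 81 called for the 3 mean contrasts became 114, 230 and 43 with centring, 518, 871 and 309 with array weights, and 394, 1039 and 278 without the 21-day replicate 1 arrays. The floor gave 621 for Seltzer and 132 for CCI against Seltzer, leaving out the dimmest probe sets gave 50 for the latter, the 50-day arrays left out gave 21 for Seltzer, and the 21-day sham control gave 86 for CCI. With each array left out in turn the 3 counts ran from 147 to 264, 247 to 711 and 62 to 152, each highest without CCI 21-day replicate 1. The Seltzer split of 168 higher and 215 lower was 129 and 309 with quantile normalization, and the split of 42 higher and 39 lower between the models was 17 and 26 with centring. Among the members' calls, the replicate block over all arrays ended 2, Gadd45a rc_AI070295_at for CCI at 21 days (adjusted p = 0.0561) and the day difference of Jun rc_AA944014_at (adjusted p = 0.0571). The cause of these moves was not tested. With 2 or 3 arrays a group and readings mostly near background, sizes of log2 changes depend on the number added, except where fold bounds are given.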
